A study of Mus musculus with 6 samples.

Results

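The genes followed here in mouse testis are Sly, Slx and Slxl1, which are related to each other across the Y and X chromosomes, the Y-linked spindlin-like genes Ssty1 and Ssty2, and the spindlins Spin1 (chromosome 13) and Spin4 (X chromosome). The 7 were chosen by symbol from a table of 25165 symbols, and all 7 were present in it. Testing was limited to symbols averaging 1 FPKM or more in KO, in WT or in both, which 5 of the 7 reached and Slx and Spin4 did not. FPKM divides the sequenced fragments of a gene by its transcript length and by the depth of the library, so levels can be set side by side between genes.

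The libraries were made from total RNA of testis of C57BL/6 mice at 8 weeks of age. The titles name 3 as KO and 3 as WT, in a study of the testis long non-coding RNA Teshl, also given as NR_038002, whose loss defines the KO. In all 6 the genotype entry is at odds with the title: it reads "Wild type" on the KO libraries and "NR_038002-/-" on the WT libraries. The gene of that transcript, 1700027A15Rik, had 0.385, 0 and 0 FPKM under the KO titles, against 1028, 989 and 1081 FPKM under the WT titles. This goes with the titles, and the groups below are those of the titles. The sources used here do not describe how the allele was made. The labels are silent on whether replicates are different mice, so a p-value here reflects library-to-library spread that could be technical only. Depth was estimated by taking the most frequent low value times transcript length as a single fragment. It lay between 28200000 fragments (WT replicate 1) and 38900000 fragments (KO replicate 3). At these depths, 3 fragments on a transcript of 1 kb would equal 0.0771 to 0.106 FPKM.

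Sly and its X-linked relatives Slx and Slxl1 belong to a gene family that also holds Xlr and Sycp3, a gene of the synaptonemal complex. Sly, Slx and Slxl1 are expressed in mouse round spermatids from many near-identical copies. SLY is known there as a repressor of genes on the X and Y chromosomes, and SLX and SLXL1 are known to act the opposite way. Spindlins are Tudor-domain proteins that read methylated histone H3, with SPIN1 the best studied, and SSTY1 and SSTY2 are their counterparts on the Y long arm. SLX, SLXL1 and SLY proteins bind spindlins in mouse spermatids, and the balance of the X-linked and Y-linked copies is known to bear on the sex ratio of offspring.

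The sequences show how alike these genes are, which limits how far reads can be given to one of them. Over aligned coding bases, with gaps left out, Slx was 85.3% identical to Sly (558 bases) and Slxl1 was 82.4% identical to Sly (437 bases), while Slxl1 and Slx were 90.1% identical to each other (445 bases). In the 75-base coding window most alike among the 3, with capitals at the 16 positions where they are not all the same, the sequences from GENCODE M21 transcripts (GRCm38) read as below. The window covers bases 68 to 142 of the Sly transcript, whose coding part begins at base 59, and begins at the first coding base of Slx and of Slxl1.
Sly: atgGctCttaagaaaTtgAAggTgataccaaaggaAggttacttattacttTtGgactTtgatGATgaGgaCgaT
Slx: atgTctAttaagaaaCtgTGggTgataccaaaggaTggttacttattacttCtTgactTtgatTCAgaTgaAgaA
Slxl1: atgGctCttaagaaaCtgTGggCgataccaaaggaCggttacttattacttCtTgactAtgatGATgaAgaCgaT

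Ssty2 was 87.1% identical to Ssty1 (680 aligned coding bases), 69.2% identical to Spin1, and Ssty1 was 72.4% identical to Spin1. In the corresponding 75-base coding window of these 3, capitals mark 20 positions that are not the same in all.
Ssty1: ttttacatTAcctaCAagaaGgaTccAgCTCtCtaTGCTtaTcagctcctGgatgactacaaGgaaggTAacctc
Ssty2: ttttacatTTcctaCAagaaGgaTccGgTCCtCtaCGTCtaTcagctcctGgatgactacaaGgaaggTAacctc
Spin1: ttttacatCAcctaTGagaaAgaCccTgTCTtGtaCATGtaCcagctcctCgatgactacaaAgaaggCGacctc

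Identity to copies of the same gene was higher still. Of all 50-base windows of the Sly transcript, 0% were found in no other gene's transcript in GENCODE M21, and 144 other genes held at least 1 of them. The same share was 0% for Ssty1 (355 other genes), 3.77% for Ssty2 (301 other genes), 21.1% for Slxl1 and 41.0% for Slx. Spin1 and Spin4 stood apart from these, with 97.4% and 100% of their windows found in no other gene. The sources used here state neither the read length nor how the authors divided reads among copies. The levels of the 5 sex-linked multicopy symbols are therefore uncertain one by one, and sums over copies are given further down.

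Sly, the Y-linked repressor, lies at chrY:57187188-57213362 of GRCm38 on the plus strand and was low in all 6 libraries. Its level was 0.350, 0.409 and 0.281 FPKM in the KO libraries, against 4.06, 1.35 and 1.84 FPKM in the WT libraries. Every KO library lay below every WT library, and WT replicate 1 stood well above the other two WT libraries. Sly occupied 3 rows of the table, and WT replicate 1 had values above 0 on all 3 of them (1.60, 1.28 and 1.18 FPKM), whereas each other library had a value above 0 on a single row. The KO mean was 14.3% of the WT mean, or 21.7% without WT replicate 1. On the log2(FPKM + 1) scale, which understates changes of low genes, the difference KO minus WT was -1.26 (SE 0.29), and it did not pass the test (limma adjusted p = 0.158). Smaller pseudocounts brought it past the threshold (limma adjusted p = 0.0371 with 0.1 and 0.0248 with 0.01), as did leaving out WT replicate 1 (0.00875). The KO values correspond to about 10 to 12 fragments and the WT values to about 40 to 106, so counting error is large for this symbol.

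**Figure D1:**
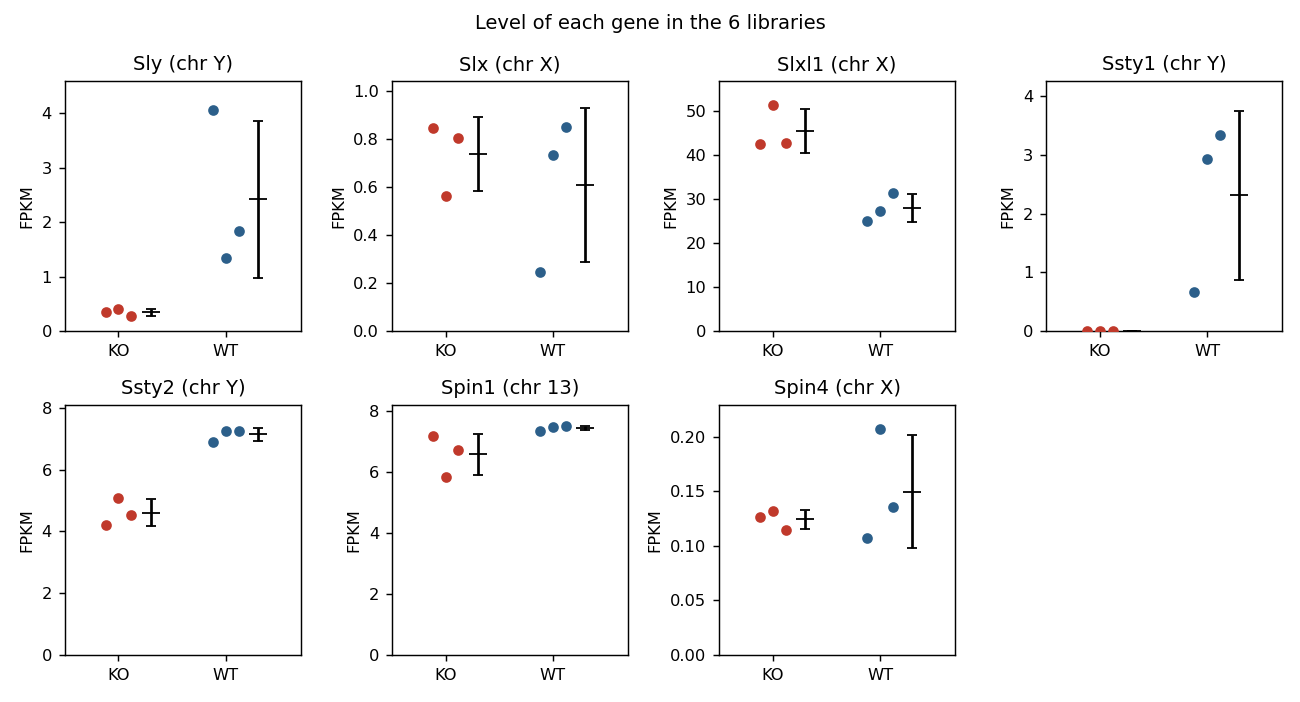
FPKM of each of the 7 genes in every library (points), with the group mean and SD beside them (bars, n = 3 each); each panel has its own vertical axis from 0. Slxl1 was higher in all 3 KO libraries, Sly, Ssty1, Ssty2 and Spin1 were lower in all 3, and for Slx and Spin4 the groups overlap.

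Slxl1, one of the X-linked genes that act against SLY, lies at chrX:55226876-55243723 on the plus strand and rose in the KO testes. It was at 42.5, 51.2 and 42.6 FPKM in the KO libraries, against 25.1, 27.2 and 31.3 FPKM in the WT libraries. Every KO library was above every WT library. The means were 45.4 ± 4.99 FPKM in KO and 27.9 ± 3.17 FPKM in WT (SD, n = 3 each), a 1.63-fold difference, and the log2 difference was 0.69 (SE 0.10, limma adjusted p = 0.0137). The call was lost when either of 2 WT libraries was left out: the limma adjusted p was 0.0613 without WT replicate 1 and 0.0729 without WT replicate 2. It was also lost when replicate number was added to the fit as a block (limma adjusted p = 0.0502).

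Slx, the other X-linked member, lies at chrX:26522656-26545565 on the minus strand and was low under its own symbol. Its values were 0.848, 0.562 and 0.804 FPKM in KO, against 0.245, 0.734 and 0.850 FPKM in WT, or about 6 to 29 fragments a library. The groups overlapped, and a two-sided exact permutation test gave p = 0.7, with 0.1 as the smallest value that 3 against 3 libraries allow. Slxl1 was thus the far more abundant symbol of the pair per kilobase of transcript.

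Across the members, 1 of 5 tested was called higher in KO, where 0.788% of all 12952 tested symbols were called higher, and 1 of 5 was called lower, where 0.363% of all were called lower. A call means a limma adjusted p under 0.05. These backgrounds are 102 symbols higher and 47 lower, and with upper-quartile scaling of the libraries they were 121 higher and 33 lower. By position alone, every KO library was above every WT library for 1 of the 5 (5.92% of all tested symbols) and below for the other 4 (15.8% of all). The median log2 difference over all tested symbols was -0.04.

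The ratio of Slx-type to Sly-type RNA was higher in every KO library. Taking Slx plus Slxl1 over Sly, it was 124, 127 and 155 in KO, against 6.24, 20.7 and 17.5 in WT. The groups did not overlap, and the lowest WT ratio, that of WT replicate 1, went with its high Sly value. The difference of the mean log2 ratios was 3.36, or 10.2-fold, and 2.82 without WT replicate 1. Slxl1 supplied nearly all of the numerator: with Slxl1 alone the difference was 3.36, and with Slx alone it was 3.10. The Sly symbol was well under 1 FPKM in KO, and with 1 FPKM added to each sum the difference was 1.95.

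Sums over copies gave a steadier ratio. Symbols counted as copies were those whose longest transcript matched a member's at 90% identity or more over 50% or more of its length, each assigned to the member it matched best. This put 9 symbols in the Sly family, 19 in the Slx family, 6 in the Slxl1 family, 3 in the Ssty1 family and 20 in the Ssty2 family, members included. The symbol Sly held 1.73% to 8.27% of its family sum in a library, Slx 0.132% to 0.393% and Slxl1 17.7% to 20.9%. The ratio of single symbols thus covers a small part of the families. Another 854 symbols had no GENCODE entry and could not be assigned, so any copies among them are missing from the sums. Nor do the sums hold every gene that shares a 50-base window with a member. The Slx and Slxl1 families together over the Sly family were at 34.1, 31.7 and 29.4 in KO, against 6.67, 7.63 and 7.77 in WT. All 3 KO ratios were far above all 3 WT ratios and the spread within each group was narrow, with WT replicate 1 close to the other WT libraries. The log2 difference was 2.11, or 4.31-fold, and it was 2.15 when the numerator held only symbols with a single row in the table.

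**Figure D2:**
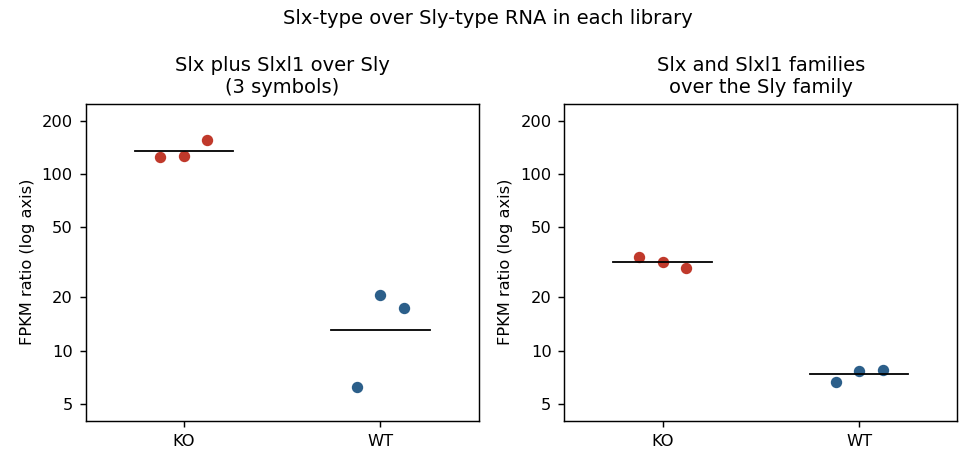
Ratio of Slx-type to Sly-type FPKM in each library (points, log axis; lines, geometric means), for the symbols Slx plus Slxl1 over Sly (left) and for the sums over similar symbols (right). KO ratios lie at 124 to 155 against 6.24 to 20.7 in WT on the left, and at 29.4 to 34.1 against 6.67 to 7.77 in WT on the right.

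Both sides of the ratio moved. The Sly family sum was 14.4, 18.5 and 16.2 FPKM in KO, against 49.1, 42.4 and 50.002 FPKM in WT, so that the KO mean was 34.7% of the WT mean. The summed Slx and Slxl1 families held 491, 587 and 475 FPKM in KO, against 328, 324 and 388 FPKM in WT, and the KO mean was 149% of the WT mean. Neither pair of groups overlapped. These sums include symbols annotated as unprocessed pseudogenes, so they are not levels of coding RNA alone. In the Sly family, the pseudogene Gm20901 averaged 2.57 FPKM in KO, against 18.2 FPKM in WT. Its most abundant protein-coding symbol, Gm20736, averaged 9.95 FPKM in KO, against 13.7 FPKM in WT. In the Slxl1 family, the pseudogene Gm14595 averaged 99.2 FPKM in KO, against 69.9 FPKM in WT. Within the X-linked side the Slx family over the Slxl1 family was 1.33, 1.25 and 1.33 in KO, against 1.32, 1.36 and 1.33 in WT, so the groups overlapped there. In bulk tissue, a different number of cells of a type and a different amount of RNA per cell cannot be told apart for any of these values.

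Among single symbols of the Sly family, 6 of 9 were tested, 3 were called lower in KO and 0 higher (4 lower with either smaller pseudocount and 5 without WT replicate 1), and the median log2 difference of the 6 was -1.08. Of all 9, 7 had every KO library below every WT library, some of them too low to be tested. Of all 12952 tested symbols, 0.363% were called lower and 15.8% had every KO library below every WT library. Gm20901, annotated as an unprocessed pseudogene, was at 2.31, 3.23 and 2.17 FPKM in KO, against 18.8, 16.6 and 19.2 FPKM in WT (limma adjusted p = 1.14e-05). Gm21679, a protein-coding copy, was at 2.23, 2.58 and 2.01 FPKM in KO, against 8.55, 7.87 and 8.85 FPKM in WT (limma adjusted p = 1.14e-05). The third called symbol was Gm20857. These 3 passed under every setting of the fit that tested them. Gm20736, the protein-coding copy with the highest Sly-family level in KO, was at 8.46, 10.7 and 10.7 FPKM in KO, against 14.7, 12.4 and 14.1 FPKM in WT, and it did not pass (limma adjusted p = 0.0895). In WT replicate 1, Gm20931, whose transcript is 100% identical to Sly over the aligned part, was listed at 0, while the other two WT libraries held 2.40 and 3.23 FPKM. That is the library in which Sly itself was highest.

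**Figure D3:**
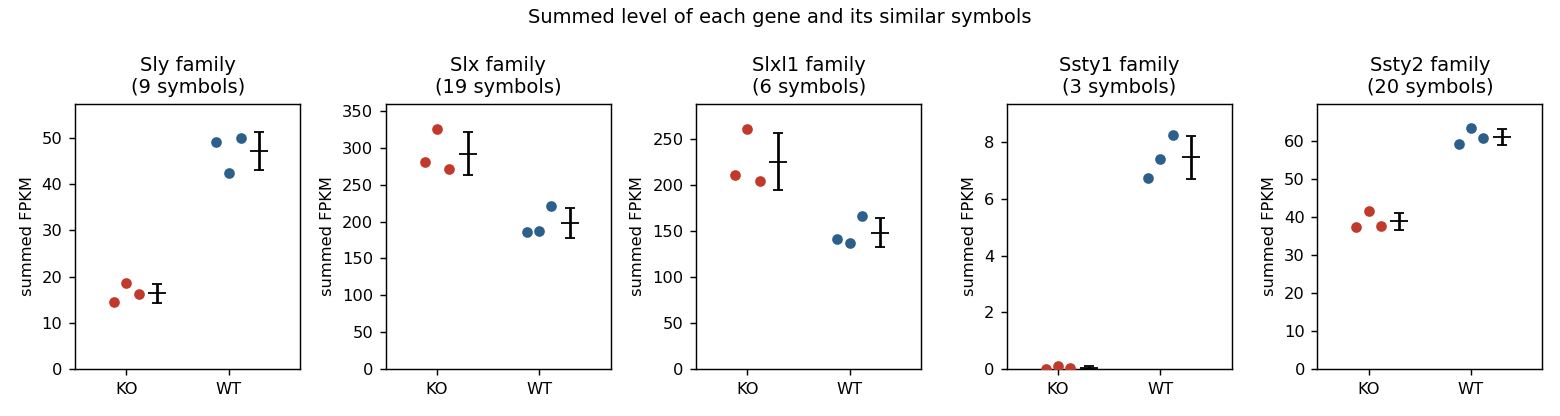
Summed FPKM of each member and its similar symbols in every library (points), with the group mean and SD (bars, n = 3 each); vertical axes begin at 0 and differ between panels. The Slx and Slxl1 sums are higher in all 3 KO libraries, and the Sly, Ssty1 and Ssty2 sums are lower in all 3.

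The Slx family had 16 of 19 symbols tested, with 5 called higher, where 0.788% of all tested symbols were, and 0 lower. The median log2 difference of the 16 was 0.56. With 1 library left out the number called higher was 3 without KO replicate 2, WT replicate 1 or WT replicate 2, and 2 without KO replicate 3. Without WT replicate 1 the family also had 1 symbol called lower. Gm5168, a protein-coding copy on 1 row of the table, held its call under every setting; it was at 5.55, 6.33 and 5.93 FPKM in KO, against 3.31, 3.05 and 3.87 FPKM in WT (log2 difference 0.66, SE 0.08, limma adjusted p = 0.00582). The other called copies were Gm1993, Gm2012, Gm5935 and Gm14525, each lost in at least 1 fit that left out a library. Copies listed on several rows varied more between libraries of one group than their sum did. Gm10058, on 12 rows, was at 65.3, 74.5 and 64.7 FPKM in KO, against 1.85, 32.1 and 60.2 FPKM in WT, and Gm10147 was at 20.3 FPKM in WT replicate 3 and at 0.373 FPKM or less in each other library. Those 2 were singled out after their values were seen. The Slx family sum was 280, 326 and 271 FPKM in KO, against 186, 187 and 222 FPKM in WT. The KO mean was 148% of the WT mean, 157% over the 9 symbols on a single row and 134% without Gm10058.

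The Slxl1 family had all 6 symbols tested, 2 of them called higher, where 0.788% of all tested symbols were, and 0 lower. The median log2 difference of the 6 was 0.56. Beside Slxl1 the called symbol was Gm14595, a pseudogene copy at 101, 110 and 86.7 FPKM in KO, against 65.3, 67.9 and 76.4 FPKM in WT (limma adjusted p = 0.04999). It was the most abundant symbol of the family, and its call was lost in 4 of the 6 fits that left out a library. The number called was 0 without WT replicate 1 or WT replicate 2 and 1 without KO replicate 1 or KO replicate 2. The sum over the family was 211, 261 and 204 FPKM in KO, against 141, 137 and 166 FPKM in WT, with no overlap.

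**Figure D4:**
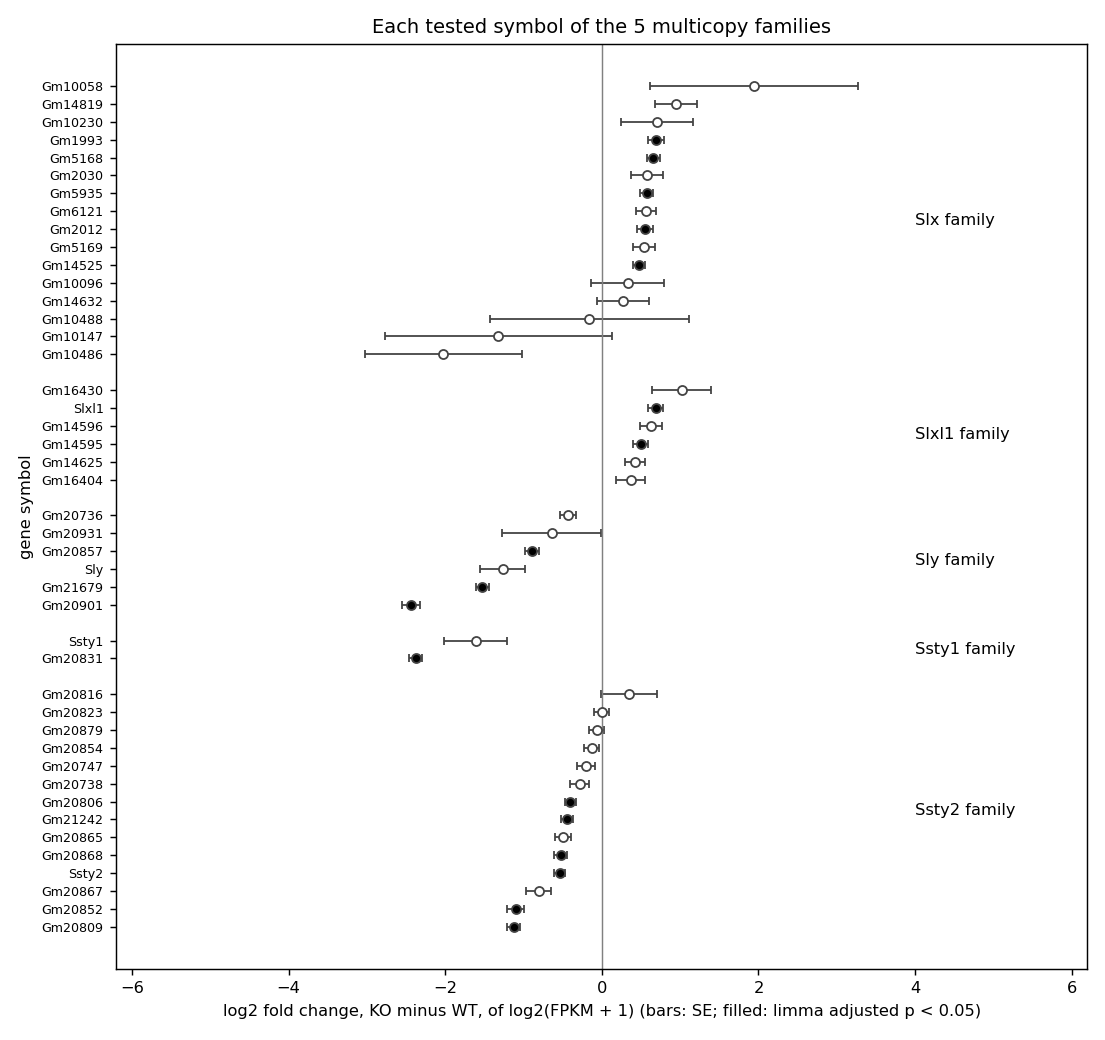
Log2 difference KO minus WT (points) with its SE (bars) for each tested symbol of the 5 multicopy families; filled points have a limma adjusted p under 0.05. Called points of the Slx and Slxl1 families lie right of 0 and those of the Sly, Ssty1 and Ssty2 families lie left of it.

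Ssty2, a spindlin-like gene of the Y long arm, lies at chrY:67045743-67048072 on the minus strand and fell in the KO testes. It was at 4.21, 5.06 and 4.54 FPKM in KO, against 6.90, 7.25 and 7.25 FPKM in WT. The groups did not overlap, and the KO mean was 64.5% of the WT mean. The log2 difference was -0.54 (SE 0.07, limma adjusted p = 0.00721), and the call held in every fit that tested the symbol. In the Ssty2 family 14 of 20 symbols were tested, 6 were called lower, where 0.363% of all tested symbols were, and 0 higher. The median log2 difference of the 14 was -0.42. Without WT replicate 1 the number called was 3. The called symbols with the largest log2 decreases were Gm20809, at 3.11, 2.38 and 2.75 FPKM in KO, against 6.89, 7.30 and 7.29 FPKM in WT (limma adjusted p = 0.000116), and Gm20852, at 0.548, 0.942 and 1.01 FPKM in KO, against 2.63, 3.29 and 2.81 FPKM in WT (0.00129). Not all copies differed: Gm20823 was at 1.45, 1.22 and 0.890 FPKM in KO, against 1.22, 1.19 and 1.12 FPKM in WT, and Gm20816, with 2.24 FPKM in KO replicate 3, was between 0.415 and 0.485 FPKM in each of the other 5 libraries. The family sum was 37.3, 41.5 and 37.7 FPKM in KO, against 59.3, 63.3 and 60.8 FPKM in WT, with a KO mean at 63.5% of the WT mean. Relative to the Sly family it was higher in KO, at 2.58, 2.24 and 2.33, against 1.21, 1.49 and 1.22 in WT, so the 2 Y-linked sums were not lower by the same factor.

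Ssty1, at chrY:18089116-18091556 on the plus strand, was listed at 0 in all 3 KO libraries. The WT libraries held 0.665, 2.93 and 3.35 FPKM, and WT replicate 1 had a value above 0 on 1 of the 3 rows of the symbol, against all 3 rows in the other two. The groups did not overlap, but the log2(FPKM + 1) difference of -1.61 (SE 0.40) did not pass (limma adjusted p = 0.218). It passed with a pseudocount of 0.1 (0.0121 by limma), with 0.01 (0.00386) and without WT replicate 1 (2.69e-05). Its copy Gm20831, 99.48% identical over the aligned part, was at 0, 0.0985 and 0.0409 FPKM in KO, against 3.96, 4.48 and 4.91 FPKM in WT (limma adjusted p = 5.80e-07). Of the 3 symbols 2 were tested and 1 was called lower, where 0.363% of all tested symbols were. Without WT replicate 1, 2 were called lower. The remaining symbol, Gm21454, was listed at 0 in all libraries but WT replicate 1, which held 2.13 FPKM. Summed over the 3 symbols, the family was at 0, 0.0985 and 0.0409 FPKM in KO, against 6.75, 7.40 and 8.26 FPKM in WT, and WT replicate 1 no longer stood apart. Values this low in KO are at or near those of 3 fragments on a transcript of 1 kb.

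Copies of Ssty1, of Ssty2 and of Sly lie along the Y long arm, and the KO level relative to WT differed along it. The boundaries used here were set after the values were seen. The 12 symbols of the 3 families that begin below 30 Mb of the GRCm38 Y chromosome summed to 8.24, 9.06 and 8.16 FPKM in KO, against 30.4, 30.2 and 32.0 FPKM in WT, and the KO mean was 27.5% of the WT mean. The 7 symbols between 30 and 60 Mb were at 33.2% of WT, and the 13 between 60 and 100 Mb at 67.7%. Of these symbols, 11 of 12, 3 of 7 and 7 of 13 had every KO library below every WT library, against 15.8% of all 12952 tested symbols. These counts include symbols too low to be tested. Over the 31 symbols with a WT mean above 0, the start position and the KO level in percent of WT had a Spearman rho of 0.67 (0.68 over the 23 with a WT mean of at least 0.5 FPKM, and 0.56 over the 19 of the Ssty2 family). The points share the same 6 libraries and much of their sequence, the 3 Ssty1-family symbols all lie at the low end, and a symbol on several rows may stand for several places, so rho is a description only.

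Promoters of the 2 spindlin-like Y genes are shown because both genes were lower in every KO library. In RefSeq (GRCm38.p6), 250 bases before to 50 bases after the start, the Ssty1 promoter at chrY:18088917-18089216 (plus strand) and the Ssty2 promoter at chrY:67048023-67048322 (minus strand) were 85.0% identical over 286 aligned bases. Capitals mark TGATGTCA, the form in which both hold the pattern TGANGTCA once.
Ssty1 promoter: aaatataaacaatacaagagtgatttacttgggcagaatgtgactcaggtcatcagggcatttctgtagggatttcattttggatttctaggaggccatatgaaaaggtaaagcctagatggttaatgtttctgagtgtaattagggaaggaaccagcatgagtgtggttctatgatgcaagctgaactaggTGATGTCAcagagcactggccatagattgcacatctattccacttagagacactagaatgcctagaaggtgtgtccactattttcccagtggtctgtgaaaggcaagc
Ssty2 promoter: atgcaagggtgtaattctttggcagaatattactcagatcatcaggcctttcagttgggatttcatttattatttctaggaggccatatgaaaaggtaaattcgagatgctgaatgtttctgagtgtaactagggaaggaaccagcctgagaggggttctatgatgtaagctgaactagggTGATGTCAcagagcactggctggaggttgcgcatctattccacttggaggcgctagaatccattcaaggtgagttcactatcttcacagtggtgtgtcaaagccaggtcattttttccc

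That pattern was chosen after the promoters were read. TGANGTCA, on either strand, was found in 8.83% of 32851 RefSeq promoters of the same length; its form TGATGTCA was in 3.62% and its form TGACGTCA in 1.79%. None of the promoters of Slx, Slxl1, Spin1 (3 starts) and Spin4 from the same source held TGANGTCA. No promoter of Sly was available there, so that gene was not searched. Spin1, without the pattern, was also lower in every KO library. TATAAA, also searched on both strands, was in 13.6% of all, in that of Slx and in that of Ssty1, and in none of the others. Slxl1 and Slx promoters were 90.3% identical to each other over 277 aligned bases. A match of letters is no evidence that a factor binds.

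Spin1, the autosomal spindlin that reads methylated histone H3, lies at chr13:51100880-51152546 on the plus strand. It was at 7.16, 5.83 and 6.72 FPKM in KO, against 7.35, 7.46 and 7.49 FPKM in WT. Every KO library was below every WT library, by a small margin in KO replicate 1. The log2 difference was -0.16 (SE 0.07) and did not pass (limma adjusted p = 0.374). Spin4, an X-linked spindlin at chrX:95022510-95026682 on the minus strand, had a low level. Its values were 0.127, 0.132 and 0.115 FPKM in KO, against 0.107, 0.207 and 0.135 FPKM in WT, from about 13 to 28 fragments. The groups overlapped (p = 0.6 by the same exact test). The spindlin relatives Spin2c and Spin2d were too low to be tested. Spindoc, which encodes a protein that binds SPIN1, was tested, with a log2 difference of 0.01 (limma adjusted p = 0.974).

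In order of mean level in KO, Slxl1 came first (45.4 FPKM), followed by Spin1 (6.57), Ssty2 (4.61), Slx (0.738), Sly (0.346), Spin4 (0.124) and Ssty1 at 0, and no neighbours in that order overlapped. In WT the order was Slxl1 (27.9 FPKM), then Spin1 (7.43) and Ssty2 (7.14), whose values lay next to each other without overlap. Then came Sly (2.42) and Ssty1 (2.31), whose values overlapped, followed by Slx (0.610) and Spin4 (0.150). Ssty1 and Slx also overlapped. Ssty1 was at 0.665 FPKM in WT replicate 1, below Slx at 0.734 and 0.850 FPKM in WT replicates 2 and 3. Under the single symbols each KO library had more Slx than Sly and each WT library more Sly than Slx. Summed over copies no such exchange was seen: the Slx family exceeded the Sly family in every library, by a ratio of 19.5, 17.6 and 16.7 in KO, against 3.79, 4.40 and 4.44 in WT.

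The genes around these members were described from lists of known partners, relatives and targets. For unadjusted p below 0.05, the share over all tested symbols was not computed. Such counts in these lists and in the marker lists below therefore have no background. SLY is known to bind the NCOR corepressor complex, of which TBL1X and TBL1XR1 are subunits, and to act on Dot1l, which encodes a histone methyltransferase. Of the 10 listed partners and targets, all 10 were tested and limma called 0; with p unadjusted, 0 were higher and 1 was lower below 0.05. That one was Tbl1x, at 3.37, 2.80 and 3.42 FPKM in KO, against 4.39, 4.67 and 3.75 FPKM in WT (log2 difference -0.33, SE 0.09, limma adjusted p = 0.158). Dot1l had a log2 difference of 0.01 (limma adjusted p = 0.964). Of the 11 Xlr and Sycp3 relatives, 4 were tested and limma called 0, and also 0 in each direction when p was left unadjusted, with Sycp3 at 114, 122 and 120 FPKM in KO, against 114, 122 and 120 FPKM in WT.

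X-linked genes of spermatids, some of them known to be repressed by SLY, were mostly higher in KO. Of 9 listed, 8 were in the table and 7 tested. Of these, 5 were called higher, where 0.788% of all tested symbols were, and 0 lower. The median log2 difference of the 7 was 0.59. Cypt2, of a family of cysteine-rich perinuclear theca proteins, was at 114, 131 and 118 FPKM in KO, against 63.1, 53.2 and 64.4 FPKM in WT (log2 difference 0.999, SE 0.08, limma adjusted p = 0.000407). 1700010D01Rik was at 198, 213 and 190 FPKM in KO, against 92.2, 81.7 and 105 FPKM in WT (limma adjusted p = 0.000507). Tgif2lx2, an X-linked homeobox gene, was at 56.2, 65.0 and 55.7 FPKM in KO, against 38.6, 36.6 and 41.3 FPKM in WT (limma adjusted p = 0.00500). Actrt1 and Cypt3 made up the 5, Cypt1 and Akap4 did not pass, and Tgif2lx1 was listed at 0 in every library. This list was drawn up with earlier results of these data known, so its direction is not independent evidence. On the Y short arm, 8 of 10 listed genes in the table were tested and limma called 0; unadjusted, 1 higher and 1 lower lay below 0.05. These were Zfy2 (log2 difference 0.33, limma adjusted p = 0.137) and Uba1y (-0.21, 0.296). Sry, too low to be tested, was at 0.493, 0.512 and 0.426 FPKM in KO, against 0.135, 0.235 and 0.177 FPKM in WT. For Kdm5d, the other untested gene, the groups overlapped.

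Round spermatids are the cells in which the sex-linked multicopy members are known to be expressed. The 8 round spermatid markers, all tested, summed to 1251 to 1463 FPKM in KO, against 1202 to 1425 FPKM in WT, an overlap, with 0 called by limma. Unadjusted, 1 of them was higher and 0 were lower below 0.05. The 5 markers of elongating spermatids summed to 30979.6 to 33016 FPKM in KO, against 25893 to 29704 FPKM in WT, with no overlap. None of the 5 was called by limma, but for 3 the unadjusted p lay below 0.05, all higher in KO: Prm1 (log2 difference 0.25, limma adjusted p = 0.0682), Tnp2 (0.35, 0.0735) and Prm2 (0.19, 0.106). For the remaining markers of this list, Tnp1 (log2 difference 0.08) and Odf1 (-0.04), the groups overlapped. No defining marker of either list was at 0, and the part of cell content in the differences of the sex-linked genes was not tested. Markers of spermatocytes, spermatogonia, Sertoli, Leydig and peritubular cells and macrophages were present in all groups, and limma called 0 in each list; unadjusted, 0 were higher and 0 or 1 in each list lower below 0.05.

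The symbols with a pattern most like a member over the 6 libraries were found by Pearson correlation of log2(FPKM + 1), among all tested symbols outside the 7. For Sly these were Dynlt1c (r = 0.985), Ak4 (0.979) and Plekhh2 (0.977), none of which was called. For Slxl1 they were Galm (0.999), the X-linked Gm4297 (0.997) and Klk1b26 (0.995), of which Gm4297 and Klk1b26 were called higher (limma adjusted p = 0.0465 and 0.0480). Ssty2 was followed by Mrap (0.9997), LOC108168625 (0.996) and Ikbip (0.991). LOC108168625 was called lower, at 2.28, 3.03 and 2.61 FPKM in KO, against 5.57, 5.65 and 5.49 FPKM in WT (limma adjusted p = 0.000897). These are the highest r among 12952 symbols over only 6 libraries, and they are given as a description.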

How the data were processed

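Total RNA of testis was extracted with Trizol and made into 6 directional libraries (NEBNext Ultra II), per the labels' protocols. The series' design text gives the HiSeq2500 as the instrument, and HISAT2 and the build mm10 are listed, per the submitters' processing notes. The sources used here give no quantifier, annotation, strand setting or read length. The authors deposited 1 table per library, whose values were taken as FPKM from the column name and the values. Depth is an estimate: the most frequent low value times transcript length, within a preset range, was taken as a single fragment.

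Rows of one symbol were summed (25910 rows, 25165 symbols), and libraries were grouped by title. Values were tested with limma 3.58.1 (R 4.3.3, trend and robust) on log2(FPKM + 1) for the 12952 symbols averaging 1 FPKM or more in either group, with Benjamini-Hochberg adjustment over all of them at 0.05. Ratios and sums have no test. Copies were found with BLAST 2.17.0 on GENCODE M21 transcripts. Identities come from pairwise alignment with affine gaps, and an earlier scoring with cheaper gaps was replaced after its alignments were seen. Tables and figures used pandas 2.3.3, SciPy 1.17.1 and matplotlib 3.10.9.

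The 7 members and all gene lists were chosen with earlier results of these data known. The text names the members, the target gene and symbols assigned to a member by similarity. It also names up to 3 genes of each list with the smallest p, and for Sly, Slxl1 and Ssty2 the 3 symbols most like them. Sycp3, Dot1l, Sry, Kdm5d and the remaining X-linked and spindlin genes were named beside these after their values were seen. Alternatives covered the pseudocount, filter, scaling, robust estimation, a replicate block, single-row symbols, the identity threshold and each library left out. Read counts were not used here.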

Additional observations from a re-analysis of the deposited data

How the results depend on the processing

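No called result turned direction. The untested log2 differences crossed 0 with 1 library left out, at -0.05 to 0.24 for Slx and -0.06 to 0.004 for Spin4. The number of symbols called was 149; it was 88 with no filter on low values, 50 with the replicate block and between 73 (without KO replicate 2) and 233 (without WT replicate 3) with 1 library left out, with 77 without KO replicate 3 and 81 without WT replicate 1. The log2 ratio of Slx plus Slxl1 over Sly, KO minus WT, was 3.36. It was 2.11, 1.97 and 2.11 with sums over symbols at 90%, 80% and 95% identity. The 80% threshold adds the X-linked 3830403N18Rik to the Sly family. With 1 FPKM added the log2 ratio was 1.95. It was 2.15 with single-row Slx-type symbols over the Sly family, an alternative chosen after seeing the data. The Ssty1 family sum in KO was 0.622% of WT, 0.274% without KO replicate 2, 0.932% without KO replicate 1, and 87.7% at 80% identity, which adds the autosomal Gm4868. The log2 fold changes of Sly and Ssty1 passed with a pseudocount of 0.1 or 0.01 and without WT replicate 1, where the main values did not. Deviations of same-numbered libraries correlated at 0.06, -0.13 and 0.06, and those of differently numbered libraries at between -0.25 and 0.20. With 3 libraries a group, such values cannot decide whether replicate numbers pair the libraries. With the replicate block, Slxl1 had a limma adjusted p of 0.0502, which ends its call, and Ssty2 of 0.0387. Under it 2 symbols of the Slx family and 0 of the Slxl1 family were called higher, and 3, 1 and 4 of the Sly, Ssty1 and Ssty2 families lower.

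Limits: with 3 libraries a group, an exact test of one value cannot go below 0.1. Sly, Slx and Spin4 rest on few fragments, and Sly, Ssty1 and Ssty2 share nearly all of their sequence with other genes, so single symbols are less certain than sums. Ssty2 could not be tested among single-row symbols because it lies on 2 rows.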
